A study of Mus musculus with 12 samples.

Results

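The genes described here are the nuclear genes of the mitochondrial respiratory chain in 562 cells, a mouse vascular tumor cell line. They were taken by symbol alone, as every gene whose name starts with Nduf, Sdha to Sdhd, Uqcr, Cox4 to Cox8 or Atp5, and 92 of the 14851 genes in the deposited tables met that rule. By role they are 7 core subunits, 28 supernumerary subunits and 8 assembly factors of complex I, 4 subunits and 4 assembly factors of complex II, 8 subunits of complex III, 16 of complex IV, 16 genes of complex V and the supercomplex factor Cox7a2l. The Sdhaf assembly factors were included because their symbols start with Sdha, and Atp5s, which is not a subunit of complex V, because its symbol starts with Atp5. Ndufa4 and its relative Ndufa4l2 were counted with complex IV, where the Ndufa4 protein is now placed. The subunits that the mitochondrial genome encodes were not analysed here.

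RNA was sequenced from 12 libraries, 3 of control 562 cells and 3 for each of the knockouts, named Fip200 KO, Atg5 KO and Atg7 KO. All of them descend from a spontaneously immortalized line grown from a cutaneous tumor of a Tsc1 f/f;Scl-Cre mouse given tamoxifen, so the control cells also lack Tsc1, although their genotype label reads wildtype, and all carry the strain label C57BL/6 and the tissue label lymphatic endothelial cells. The knockouts were made with sgRNAs in LentiCRISPR v2 under puromycin selection, and which of the Fip200 KO clones was sequenced is not stated. Fip200, encoded by Rb1cc1, starts autophagosome formation, while Atg5 and Atg7 act in the conjugation of LC3. The comparisons ask how the RNA of the chain differed between each autophagy knockout and control, and whether its complexes differed alike.

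The respiratory chain passes electrons from NADH through complex I, and from succinate through complex II, to ubiquinone, complex III and, by way of cytochrome c, to oxygen at complex IV. Complexes I, III and IV pump protons across the inner membrane, and complex V, the ATP synthase, lets them flow back through its membrane rotor to make ATP in its F1 head. Autophagy removes damaged mitochondria, and nuclear transcription factors such as NRF1, the ETS factor GABP and YY1 are known to act at promoters of many chain genes.

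Promoter sequence was therefore read first. RefSeq windows on GRCm38.p6, from 250 bases before to 50 after a start site, were given for 77 of the 92 genes. The letters GCGCATGCG, a part of the NRF1 site, were present on either strand in the windows of 10 of these 77 genes (13.0%), against 1.95% of 27025 genes with a window. CCGGAAG, the ETS core, was found for 21 genes (27.3% against 9.93%), AAGATGG, the YY1 core, for 12 (15.6% against 7.28%), and TCAAGGTCA, an ERRalpha site, for 2 (2.60% against 0.466%). In all, 38 of the 77 genes held at least 1 of the 4 motifs. Of the 10 genes with the NRF1 letters 0 passed in the Fip200 KO, 5 rose in the Atg5 KO and 2 in the Atg7 KO cells, where 0.356%, 22.9% and 11.3% of all genes rose. Of the 21 with the ETS core 5 rose and 2 fell in the Atg5 KO cells, where 22.9% and 18.7% of all genes did. The median log2 fold change there was 0.32 with and 0.17 without the NRF1 letters, 0.22 and 0.17 for the ETS core and 0.21 and 0.20 for the YY1 core. For the NRF1 letters it was 0.04 and −0.02 in the Fip200 KO and 0.13 and 0.003 with Atg7 KO. The ETS core gave 0.05 and −0.01 in the Fip200 KO and 0.12 and −0.008 with Atg7 KO. The YY1 core gave 0.04 and −0.02 in the Fip200 KO and 0.13 and 0.009 with Atg7 KO. A match is a string of letters and not evidence of binding. The 150 bases before the start site are shown for 3 genes with the NRF1 letters and a pair with the ETS core that are described below, and for Ndufa13, which held none of the 4 motifs and was the only gene of the chain to pass in all 3 knockouts. Capitals mark the motif, and the NRF1 letters match on both strands with an overlap, so that 10 bases are in capitals there.
Atp5g2 (chr15:102671048-102671197, minus strand): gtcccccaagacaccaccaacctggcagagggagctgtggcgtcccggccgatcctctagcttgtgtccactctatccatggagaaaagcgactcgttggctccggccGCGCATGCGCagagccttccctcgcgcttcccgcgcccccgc
Ndufa11 (chr17:56717612-56717761, plus strand): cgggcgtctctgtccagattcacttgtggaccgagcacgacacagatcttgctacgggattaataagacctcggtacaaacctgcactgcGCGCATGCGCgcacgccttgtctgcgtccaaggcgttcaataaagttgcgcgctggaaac
Ndufaf4 (chr4:24897933-24898082, plus strand): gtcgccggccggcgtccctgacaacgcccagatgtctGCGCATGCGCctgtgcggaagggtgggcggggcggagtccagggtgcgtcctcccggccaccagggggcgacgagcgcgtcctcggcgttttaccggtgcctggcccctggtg
Uqcrh (chr4:116075071-116075220, minus strand): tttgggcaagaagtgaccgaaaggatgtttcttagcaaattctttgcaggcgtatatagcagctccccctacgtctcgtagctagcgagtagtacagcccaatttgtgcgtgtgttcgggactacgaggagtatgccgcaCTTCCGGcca
Ndufb7 (chr8:83566608-83566757, plus strand): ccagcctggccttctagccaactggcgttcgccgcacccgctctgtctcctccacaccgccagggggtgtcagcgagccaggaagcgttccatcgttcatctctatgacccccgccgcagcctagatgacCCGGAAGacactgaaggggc
Ndufa13 (chr8:69902021-69902170, minus strand): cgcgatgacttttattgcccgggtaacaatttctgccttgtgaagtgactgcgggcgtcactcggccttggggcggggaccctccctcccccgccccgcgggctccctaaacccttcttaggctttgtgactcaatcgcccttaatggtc

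In control cells the genes of the chain were expressed well above the median of all genes. The unit is RPKM, the reads of a gene per kilobase of its length and scaled to the reads of the library, so levels can be compared between genes. The median of the mean control RPKM was 55.4 over the 92 genes and 6.73 over all 14851. The levels differed between complexes, and the structural subunits stood above the assembly factors. The median control level was 38.7 RPKM for the core and 49.3 for the supernumerary subunits of complex I, 75.2 for complex II, 73.0 for complex III, 105.5 for complex IV, 142.5 for the F1 head and stalk of complex V and 167.5 for its membrane part and others. It was 7.19 RPKM for the assembly factors of complex I and 11.1 for those of complex II. Cox4i1, the common form of subunit 4 of complex IV, had the highest mean (444.0 ± 32.9 RPKM, SD, n = 3), next to Atp5b, the catalytic beta subunit of the F1 head (420.9 ± 29.2). Genes with the highest level of their class included Ndufb9 (185.7), Ndufaf2 (25.4), Sdha (83.2), Sdhaf4 (18.5), Uqcrb (180.7) and Atp5l (190.3).

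**Figure D1:**
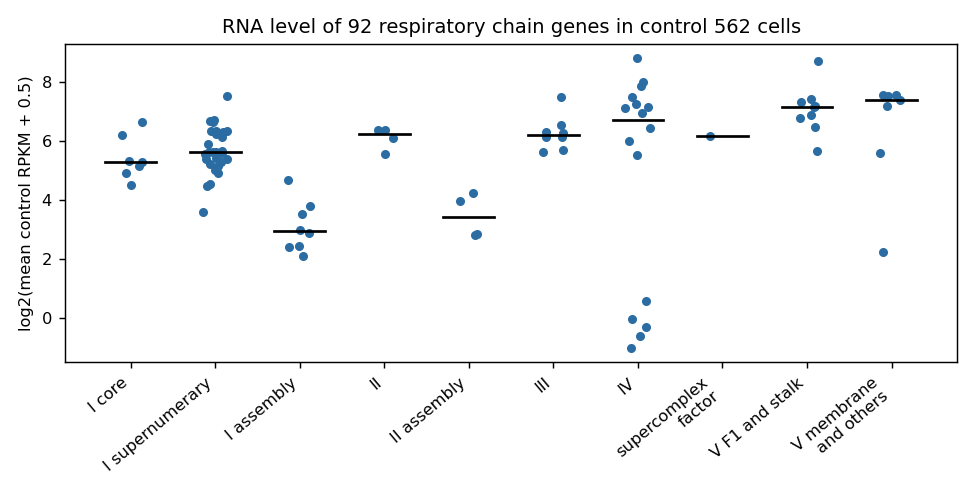
RNA level of the 92 respiratory chain genes in control 562 cells by class, as log2 of the mean RPKM of 3 control libraries plus 0.5. Each point is a gene and each bar the median of its class. The assembly factors of complexes I and II lie below most subunits, and 5 genes of complex IV, which are Cox4i2, Cox6a2, Cox6b2, Cox7a1 and Ndufa4l2, lie at about 1 RPKM or below.

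Several subunits of complex IV exist in a common form and in a form known from muscle, lung or testis. The common forms were abundant in every library, while the tissue forms were close to 0. Cox4i2 did not exceed 0.653 RPKM, Cox6a2 1.04, Cox6b2 0.132 and Cox7a1 2.20 in any of the 12 libraries, whereas Cox4i1, Cox6a1, Cox6b1 and Cox7a2 were at 236.3, 178.8, 135.5 and 74.7 RPKM or more. The striated muscle markers Ckm, Myh7, Actn2, Des and Myl2 summed to at most 0.321 RPKM in any library, with 2 of the 5 symbols in the tables. Ndufa4l2, the hypoxia-associated relative of Ndufa4, was the exception. It had 36.5 RPKM in Fip200 KO replicate 2, 2.20 in Fip200 KO replicate 1, 3.46 in Atg7 KO replicate 3 and at most 0.806 in the other 9 libraries. It failed the filter on low values in each comparison with control and was not tested there.

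Between 17266926 and 23629730 reads per library fell on the listed genes, and the chain took between 0.656% and 0.879% of them. The labels call the replicates independent without saying whether they were separate cultures, so a p-value measures the spread between these libraries, which may be technical. The paper's reporting summary gives at least biological triplicates for its experiments in general, and does not describe the cultures sequenced here. Atg7 RNA was between 2.64 and 8.34 RPKM in the Atg7 KO and between 18.4 and 25.0 in control libraries. Rb1cc1 was between 2.06 and 6.84 RPKM in the Fip200 KO against 6.43 to 8.27 in control, and Atg5 between 8.53 and 15.5 in the Atg5 KO against 10.6 to 14.2 in control, so neither separated its KO from control. The 8 endothelial and 4 lymphatic endothelial markers were all in the tables. The 4 lymphatic markers summed to between 261.5 and 357.9 RPKM in control and between 219.5 and 821.1 in KO libraries. Prox1, a defining factor of lymphatic endothelium, was close to 0 in several libraries, with 0.153 RPKM in control replicate 2, 0.0366 and 0.110 in Fip200 KO replicates 1 and 3, 0.134 in Atg5 KO replicate 3 and 0.0420 in Atg7 KO replicate 1, and reached 5.79 in Atg7 KO replicate 3. The junction gene Cldn5 was at 0.299 and 0.143 RPKM in control replicates 2 and 3 against 12.1 in control replicate 1. The endothelial sum ranged from 1017 to 2469 RPKM in control and from 1679 to 2653 in KO libraries. The 5 hematopoietic markers summed to between 52.9 and 111.1 RPKM in control, 19.3 and 265.1 in the Fip200 KO libraries, 15 and 16.7 in the Atg5 KO and 13.9 and 27.3 in those of Atg7 KO. The 5 mesenchymal markers summed to between 1.11 and 70.7 RPKM in control and to at most 16 in KO libraries. Control replicate 2 stood apart, with Dcn at 56.9 RPKM against 15.2 in control replicate 3 and 0.125 in control replicate 1. The epithelial markers, of which 2 of 4 were in the tables, summed to at most 10.6 RPKM. Cdh5, Cldn5, Kdr, Tie1, Lyve1, Flt4 and the mesenchymal marker Acta2 rose and Cd68 fell in the Atg5 KO cells, and Lyve1 rose and Cd68 fell in the Atg7 KO cells. The part of these markers in the results below was not tested. In bulk samples fewer cells of a type and less RNA per cell cannot be told apart.

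The number of chain genes that passed was counted in each KO beside that of all genes. A gene passed where its adjusted p was at most 0.1 in limma over all genes tested, and the study also asked for a log2 change of 1 or more in either direction. In Fip200 KO cells 89 of the 92 genes could be tested, of which 0 rose and 1 fell, where 0.356% and 1.69% of all genes tested rose and fell. In limma 10 of the 89 (11.2%) had an unadjusted p under 0.05, beside 16.1% of all genes. In Atg5 KO cells 21 of 88 rose (23.9%) and 13 fell (14.8%), against 22.9% and 18.7% of all genes. In Atg7 KO cells 6 of 88 rose (6.82%) and 5 fell (5.68%), against 11.3% and 13.7%. With the size threshold only Ndufa13 in all 3 KO and Ndufaf3 in the Atg5 KO cells remained, where 1.64%, 6.94% and 6.81% of all genes fell past it in Fip200, Atg5 and Atg7 KO cells and 0.347%, 4.31% and 3.29% rose past it. The shares of the chain were thus close to those of all genes in the Atg5 KO cells and below them in the Atg7 KO cells. The median log2 fold change of the tested chain genes was −0.004 in the Fip200 KO, 0.17 in the Atg5 KO and 0.02 in Atg7 KO cells, beside 0.02, 0.06 and −0.01 for all genes. Without control replicate 2, 0 chain genes passed in the Fip200 KO cells, 21 rose and 8 fell in the Atg5 KO cells and 0 rose and 2 fell with Atg7 KO, where 0% of all genes passed in the first, 20.9% and 15.1% rose and fell in the second and 4.39% and 6.18% in the last. The 3 comparisons share the control libraries, so that a control value counts in each of them.

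The counts moved with the fit. In the single fit of 12 libraries without any further term, 5 chain genes rose and 4 fell in the Atg5 KO cells, beside 9.83% and 9.20% of all genes. The names of the libraries have the prefix FY, JG or Yang: FY for control replicate 1 and the Fip200 KO libraries, JG for control replicates 2 and 3 and Atg5 KO replicates 1 and 2, and Yang for Atg5 KO replicate 3 and the Atg7 KO libraries. With the prefix added as a term to that fit, 0 chain genes rose and 1 fell in the Atg5 KO cells, and 0 passed in the Fip200 KO and Atg7 KO cells. The calls over all genes were then 2.73% higher and 3.70% lower in the Atg5 KO cells, with 0.0654% and 0.245% for Atg7 KO. The median of the chain was 0.07 in the Atg5 KO and −0.18 in the Atg7 KO cells with that term. Since no Atg7 KO library shares a prefix with a control library, the term ties Atg7 KO to control only through Atg5 KO replicate 3, 1 library, which had the highest level of all 12 libraries for 23 of the 92 genes. Within the JG libraries alone, 16 genes rose and 10 fell in the Atg5 KO cells, beside 23.2% and 19.2% of all genes. Within the FY libraries, with the single control taken to vary like the others, 0 chain genes and 0 of 11335 genes passed in limma in the Fip200 KO cells. Of the chain genes that passed, 6 of 34 in the Atg5 KO and 5 of 11 in the Atg7 KO cells moved by over 1.5 times with the prefix as a term. The latter were Atp5b (0.66 to 0.18), Uqcrc1 (0.57 to 0.23), Ndufaf4 (0.71 to 0.43), Sdhc (−0.60 to −1.07) and Atp5a1 (0.48 to −0.22). In Atg5 KO cells the split also moved with the scaling, from 21 higher and 13 lower to 15 and 14 with median-of-ratios size factors. Over all genes it moved from 22.9% higher and 18.7% lower to 19.6% and 20.7%.

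**Figure D2:**
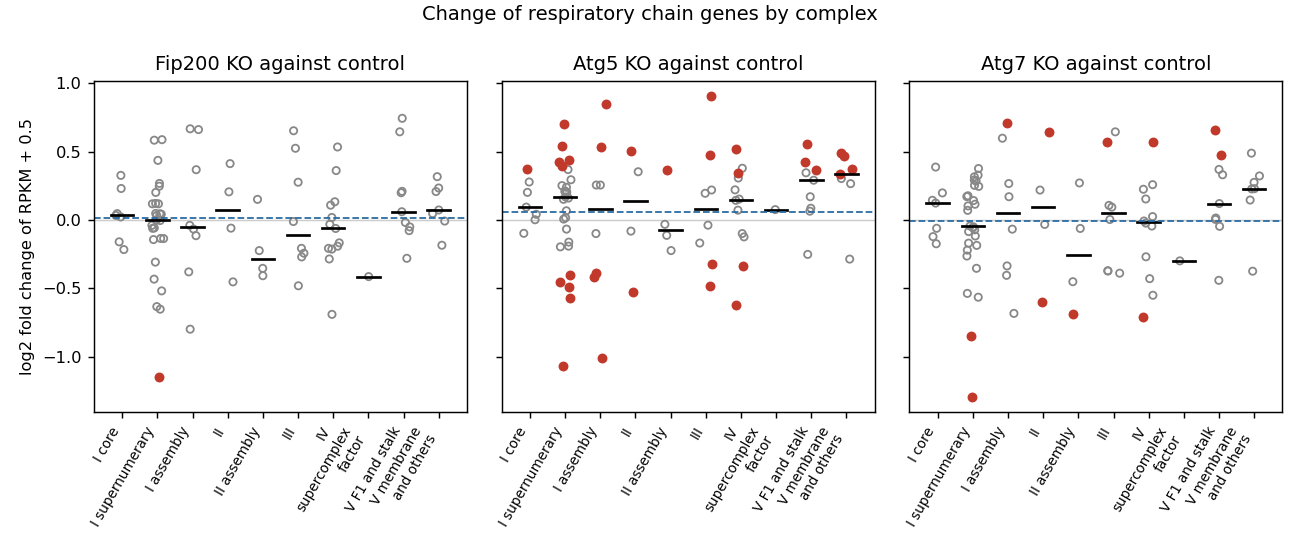
Log2 fold change of RPKM plus 0.5 in each KO against control for the tested respiratory chain genes, by class. Filled points passed at an adjusted p of at most 0.1 in limma, open points did not, black bars are class medians and the dashed line is the median of all genes tested. Complex V in the Atg5 KO cells lies mostly above 0 with 7 filled points, and the lowest point in each panel is Ndufa13.

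Ndufa13, also known as GRIM-19, is a supernumerary subunit needed for the assembly of complex I and was the chain gene with the largest change. Its level (gene ID 67184, chromosome 8) was 62.3, 84.2 and 78.3 RPKM in control libraries. It was 41.6, 32.3 and 27.3 RPKM in the Fip200 KO libraries, 35.3, 39.4 and 31.3 in the Atg5 KO and 26.9, 31.4 and 32.1 in those of Atg7 KO. All 9 KO libraries were below all 3 controls, and the lowest rested on 581 reads. The log2 fold change was −1.15 (SE 0.226, adjusted p = 0.0864, limma) in the Fip200 KO, −1.07 (SE 0.150, adjusted p = 0.00611) in the Atg5 KO and −1.29 (SE 0.166, adjusted p = 0.00974) in the Atg7 KO cells. With the prefix as a term the Atg5 KO value was −1.11 (adjusted p = 0.0404), while Fip200 KO and Atg7 KO no longer passed (−0.90, adjusted p = 0.399, and −1.17, adjusted p = 0.328). The Fip200 KO call was also lost without any 1 of the controls or without Fip200 KO replicate 2 (adjusted p between 0.156 and 0.490), with log2 fold changes from −1.31 to −0.90 over all settings run. Without control replicate 2 or 3, 0 genes of the whole table passed in limma. In RefSeq Ndufa13 overlaps Tssk6 and is 1 of 30 of the 92 genes with an overlapping gene, and whether the counting used strand is not stated. Many chain genes also have processed pseudogenes, and how reads shared with such copies were counted is not stated.

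Of the 35 subunits of complex I, Ndufa13 included, 6 rose (17.1%) and 5 fell (14.3%) in the Atg5 KO cells, below the 22.9% and 18.7% of all genes, with a median log2 fold change of 0.16 over the 35. With Atg7 KO 0 rose and 2 fell (median −0.04), and in the Fip200 KO cells 1 fell (median 0.02). Ndufa5, a supernumerary subunit of the arm that reaches into the matrix, had 22.7, 21.8 and 23.4 RPKM in control and 35.7, 35.6 and 40.4 in the Atg5 KO libraries, its highest change (log2 fold change 0.70, SE 0.103, adjusted p = 0.00670, limma). It did not pass in the Fip200 KO (37.6, 22.4 and 34.5 RPKM) or Atg7 KO cells (35.9, 20.5 and 29.3 RPKM), where 1 library each did not exceed the highest control. Ndufa11, shown above with the NRF1 letters, rose in the Atg5 KO cells from 9.99, 12.9 and 11.9 to 15.4, 15 and 16.9 RPKM (log2 fold change 0.44, adjusted p = 0.0493). Ndufa3, Ndufa9 and Ndufb6 also rose there, by 0.42, 0.39 and 0.54 on the log2 scale.

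Ndufb7, with the ETS core before its start, had 84.9, 109.0 and 112.2 RPKM in control libraries. It fell in the Atg5 KO to 71.9, 80.4 and 64.4 RPKM (log2 fold change −0.49, adjusted p = 0.0462, limma) and in the Atg7 KO to 54.3, 49.9 and 64.5 (−0.85, adjusted p = 0.0258). Fip200 KO libraries, at 60.2, 55.8 and 82.0 RPKM, were below the controls as well, but the gene did not pass (adjusted p = 0.236). Ndufa1, Ndufb3 and Ndufb9 fell in the Atg5 KO cells, by log2 fold changes of −0.57, −0.40 and −0.45.

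Among the 7 core subunits, which hold the flavin and the iron-sulfur clusters and are conserved in bacteria, 1 passed in 1 group. In the Atg5 KO cells that was 14.3% higher, beside 22.9% of all genes. In the Fip200 KO cells 0.356% and 1.69% of all genes rose and fell, and in the Atg7 KO cells 11.3% and 13.7%. Ndufv2 rose in the Atg5 KO cells from 37.0, 35.7 and 33.1 to 42.3, 43.4 and 52.0 RPKM (log2 fold change 0.37, adjusted p = 0.0551, limma). The range over the core was −0.22 (Ndufv1) to 0.33 (Ndufs1) in the Fip200 KO, −0.10 (Ndufs7) to 0.37 in the Atg5 KO and −0.17 (Ndufs3) to 0.39 (Ndufs1) in the Atg7 KO cells. The 28 supernumerary subunits, a larger class, reached from −1.15 to 0.59, from −1.07 to 0.70 and from −1.29 to 0.38.

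The assembly factors of complex I, which build the enzyme but are not part of it, passed in either direction in the Atg5 KO cells. There 2 of 8 rose and 3 fell, beside 22.9% and 18.7% of all genes. Ndufaf3, which acts on the matrix arm during assembly, had 6.67, 9.44 and 6.07 RPKM in control and 3.35, 4.73 and 2.34 in the Atg5 KO libraries (log2 fold change −1.01, SE 0.266, adjusted p = 0.0314, limma). The Fip200 KO (5.39, 4.05 and 2.82 RPKM) and Atg7 KO libraries (4.02, 5.70 and 3.54 RPKM) lay below the controls too but did not pass (adjusted p = 0.263 and 0.104). Ndufaf4, with the NRF1 letters, went the other way. It had 5.52, 4.96 and 4.58 RPKM in control, 7.12, 6.66 and 8.85 in the Atg5 KO (log2 fold change 0.54, adjusted p = 0.0408) and 10.6, 6.38 and 9.05 in the Atg7 KO libraries (0.71, adjusted p = 0.0717). In Fip200 KO libraries it had 7.28, 5.91 and 12.9 RPKM, above the controls without passing. Ndufaf6 rose in the Atg5 KO cells by 0.85 on the log2 scale (adjusted p = 0.0320), and Ndufaf1 and Ndufaf7 fell (−0.42 and −0.39).

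In complex II, which is succinate dehydrogenase, the 2 subunits that anchor the enzyme in the membrane changed in opposite directions. Sdhc had 76.2, 87.3 and 83.4 RPKM in control, 52.4, 51.0 and 69.4 in the Atg5 KO libraries and 56.7, 48.9 and 57.1 in those of Atg7 KO. It fell in both (log2 fold changes −0.52, adjusted p = 0.0358, and −0.60, adjusted p = 0.0351, limma). Sdhd had 44.0, 47.2 and 49.3 RPKM in control, 63.9, 70.5 and 65.6 in the Atg5 KO libraries and 88.4, 64.6 and 69.3 in those of Atg7 KO, and it rose in both (0.51, adjusted p = 0.0136, and 0.65, adjusted p = 0.0434). In Fip200 KO cells neither passed, with Sdhc at 90.0, 47.0 and 50.8 and Sdhd at 65.9, 50.4 and 73.0 RPKM. The ratio of Sdhd to Sdhc RPKM, looked at after these values were seen and so not tested, was 0.577, 0.541 and 0.591 in control libraries. It was 0.733, 1.07 and 1.44 in the Fip200 KO libraries, 1.22, 1.38 and 0.946 in the Atg5 KO and 1.56, 1.32 and 1.21 in those of Atg7 KO, so that every KO library had a higher ratio than every control. The catalytic subunits Sdha and Sdhb did not pass in any KO, with log2 fold changes between −0.08 and −0.03 for Sdha and between 0.21 and 0.35 for Sdhb. Of the complex II assembly factors Sdhaf2 rose in the Atg5 KO cells (0.36, adjusted p = 0.0918) and Sdhaf4 fell in the Atg7 KO cells (−0.69, adjusted p = 0.0429).

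Of the 8 subunits of complex III, 2 rose and 2 fell in the Atg5 KO, 1 rose in the Atg7 KO and 0 passed in the Fip200 KO cells, shares near those of all genes (22.9% and 18.7% in the Atg5 KO). Uqcrh, its hinge protein near cytochrome c1, had 65.5, 63.4 and 99.5 RPKM in control and 121.2, 137.1 and 165.0 in the Atg5 KO libraries (log2 fold change 0.91, SE 0.205, adjusted p = 0.0203, limma), the highest rise of any chain gene in that group. In Fip200 KO (93.8, 136.4 and 126.3 RPKM) and Atg7 KO libraries (120.5, 93.3 and 141.4) 1 library each lay below the highest control, and neither passed (adjusted p = 0.274 and 0.106). Uqcrc1, a large core protein on the matrix side, had 70.3, 73.8 and 65.2 RPKM in control libraries. It rose in the Atg5 KO to 89.4, 89.8 and 114.3 RPKM (0.48, adjusted p = 0.0345) and in the Atg7 KO to 125.3, 90.5 and 98.9 (0.57, adjusted p = 0.0597), and lay at 135.0, 82.5 and 90.9 in the Fip200 KO libraries without passing (adjusted p = 0.320). Uqcrfs1, the Rieske iron-sulfur protein, fell in the Atg5 KO cells from 70.4, 63.1 and 74.9 to 56.5, 53.3 and 40.1 RPKM (−0.48, adjusted p = 0.0547). Uqcrb also fell there (−0.32, adjusted p = 0.0857) and was the lowest of the complex in the Atg7 KO cells (−0.39, adjusted p = 0.118). Over the 8 subunits the median was −0.11 in the Fip200 KO, 0.08 in the Atg5 KO and 0.05 in Atg7 KO cells.

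In complex IV the most abundant subunit fell in the Atg5 KO and Atg7 KO cells, and 1 or 2 other subunits rose. Cox4i1 had 408.5, 450.0 and 473.4 RPKM in control libraries. It had 252.2, 242.6 and 337.7 RPKM in the Fip200 KO libraries, 284.5, 305.2 and 275.9 in the Atg5 KO and 236.3, 326.0 and 259.0 in those of Atg7 KO, all 9 below the controls. It passed in the Atg5 KO (log2 fold change −0.62, SE 0.107, adjusted p = 0.00982, limma) and Atg7 KO (−0.71, SE 0.170, adjusted p = 0.0379) but not in the Fip200 KO cells (−0.69, SE 0.214, adjusted p = 0.194). Cox7a2 showed the opposite. It had 94.4, 74.7 and 91.8 RPKM in control, 177.6, 113.6 and 97.7 in the Fip200 KO libraries, 121.9, 126.4 and 124.1 in the Atg5 KO and 133.6, 131.5 and 120.3 in those of Atg7 KO, and it rose in the Atg5 KO (0.52, adjusted p = 0.0206) and Atg7 KO cells (0.57, adjusted p = 0.0487). Cox6c rose and Cox7c fell in the Atg5 KO cells (0.35 and −0.34), and the 12 tested subunits had a median of 0.15 there and −0.02 in the Atg7 KO cells. Ndufa4 did not pass (adjusted p = 0.246 in the Atg5 KO) and was at 53.5 RPKM in Atg7 KO replicate 2 against 129.6 to 197.9 in the other 11 libraries.

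**Figure D3:**
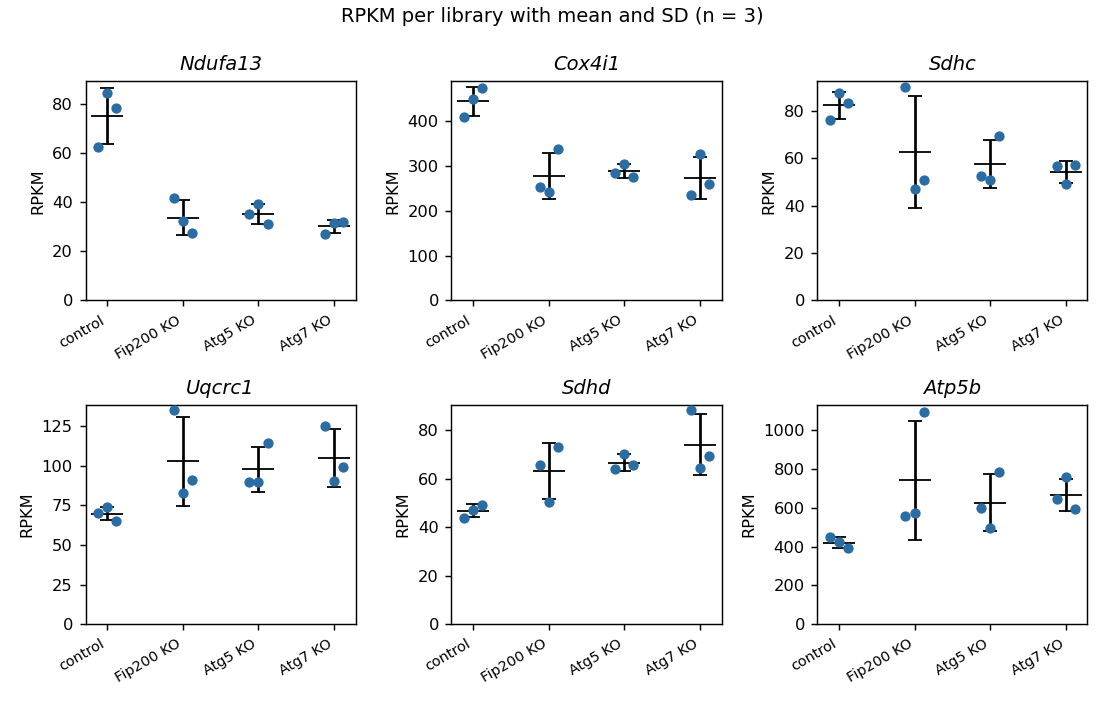
RPKM of 6 respiratory chain genes in each library. Points are libraries, the wide bar is the group mean and the error bars are SD (n = 3), with axes from 0. Ndufa13 and Cox4i1 lie lower in all 9 KO libraries than in the 3 controls, Uqcrc1, Sdhd and Atp5b lie higher in all 9, and Sdhc lies lower in the Atg5 KO and Atg7 KO libraries with 1 Fip200 KO library at 90.0 RPKM.

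In complex V most subunits lay above 0 in the Atg5 KO and Atg7 KO cells. Of its 15 subunits 7 rose and 0 fell in the Atg5 KO cells, with 14 above 0 and a median log2 fold change of 0.33, where 22.9% and 18.7% of all genes rose and fell and 6407 of 11833 were above 0. In Atg7 KO cells 2 rose and 0 fell, with 13 above 0 and a median of 0.23, where 11.3% and 13.7% of all genes rose and fell. In Fip200 KO cells 0 passed, 10 were above 0 and the median was 0.07. With median-of-ratios size factors 4 subunits rose and 1 fell in the Atg5 KO cells, where 19.6% of all genes rose and 20.7% fell. For Atg7 KO that scaling gave 1 higher and 1 lower subunit, beside 12.1% and 13.5% of all genes. In the single fit of 12 libraries 0 subunits passed with Atg5 KO, where 9.83% of all genes were higher and 9.2% lower. With Atg7 KO 1 fell in that fit, while over all genes 8.76% rose and 11.3% fell. Within the JG libraries the Atg5 KO median was 0.20, where 3 rose and 1 fell, beside 23.2% and 19.2% of all genes. With the prefix as a term, which gives the same fold changes for Atg5 KO by construction, 0 passed. The Atg7 KO median was −0.18 with that term, with 5 of 15 above 0, a value that rests on Atg5 KO replicate 3, the library with the highest complex V sum (3499 RPKM). In the Atg5 KO cells 1 subunit rose without Atg5 KO replicate 1 (median 0.40), 3 without its replicate 2 (0.38), 3 without its replicate 3 (0.22), 4 without control replicate 2 (0.32) and 2 without control replicate 3 (0.34). Of all genes 12.2%, 13.9%, 18.5%, 20.9% and 16.6% rose in that order. In the Atg7 KO cells 0 subunits rose without control replicate 2, control replicate 3 or Atg7 KO replicate 1, and 1 rose without control replicate 1 or Atg7 KO replicate 3. Of all genes 4.39%, 2.42%, 3.11%, 8.37% and 5.7% rose in that order.

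Atp5b, the gene of the catalytic beta subunit, was the highest of the complex by change in each KO. It had 449.8, 421.6 and 391.4 RPKM in control, 555.8, 571.5 and 1097 in the Fip200 KO libraries, 599.4, 497.1 and 785.3 in the Atg5 KO and 644.4, 760.4 and 596.6 in those of Atg7 KO. All 9 KO libraries were above the controls. It rose in the Atg5 KO (log2 fold change 0.55, SE 0.178, adjusted p = 0.0570, limma) and Atg7 KO (0.66, SE 0.158, adjusted p = 0.0379) but did not pass in the Fip200 KO cells (0.74, SE 0.306, adjusted p = 0.295), where replicate 3 stood apart. Its partner in the F1 hexamer, Atp5a1, had 163.9, 164.7 and 187.3 RPKM in control and 235.3, 280.8 and 206.9 in the Atg7 KO libraries (0.48, adjusted p = 0.0910), a direction that turned with the prefix as a term (−0.22, adjusted p = 0.883), which sets Atg7 KO against Atg5 KO replicate 3, the library with most Atp5a1 reads (15035). With that term Atp5b in the Atg7 KO cells was at 0.18 (adjusted p = 0.933). Atp5d and Atp5o, of the central stalk and the stator, rose in the Atg5 KO cells (0.42 and 0.36).

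In the membrane part, Atp5g1 and Atp5g2, which with Atp5g3 encode the same mature rotor subunit c, rose in the Atg5 KO cells by log2 fold changes of 0.47 (adjusted p = 0.0373, limma) and 0.33 (adjusted p = 0.0694). Atp5g2, with the NRF1 letters, had 170.3, 164.3 and 168.0 RPKM in control and 200.8, 193.6 and 241.7 in the Atg5 KO libraries. Atp5l, the g subunit, had 186.7, 181.9 and 202.4 RPKM in control and 242.9, 250.4 and 247.1 in the Atg5 KO libraries (0.38, SE 0.095, adjusted p = 0.0280), and Atp5j2 also rose (0.49). Of the 15 subunits of complex V, 5 were below 0 in the Fip200 KO and 2 in the Atg7 KO cells. In the Atg5 KO cells Atp5f1, the b subunit of the stator, was the only one below 0. It had 153.2, 166.4 and 158.8 RPKM in control, 142.9, 123.8 and 127.4 in the Fip200 KO libraries, 126.7, 125.9 and 150 in the Atg5 KO and 136.7, 98.5 and 119.6 in those of Atg7 KO. It was below the controls in all 9 KO libraries and did not pass in the main fit of any KO against control (log2 fold changes −0.28, −0.25 and −0.44).

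The summed levels of the complexes differed in how they compared with control. The RPKM of the 15 subunits of complex V summed to 2315, 2287 and 2381 in control, 2842, 2392 and 3157 in the Fip200 KO libraries, 2699, 2637 and 3499 in the Atg5 KO and 2942, 2942 and 2638 in those of Atg7 KO. Dividing each KO mean by that of control gave 1.20, 1.27 and 1.22 in the order Fip200, Atg5 and Atg7, and 1.08, 1.22 and 1.14 without Atp5b. Complex IV summed to 1751, 1941 and 1896 RPKM in control, 1829, 1565 and 1670 in the Fip200 KO libraries, 1841, 1860 and 1935 in the Atg5 KO and 1686, 1724 and 1704 in those of Atg7 KO, ratios of 0.906, 1.01 and 0.915. The ratios were 0.977, 1.03 and 0.943 for complex I, 1.01, 1.03 and 1.03 for complex II and 1.05, 1.09 and 1.03 for complex III. These sums are descriptions with no test, and an abundant gene weighs most in them.

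**Figure D4:**
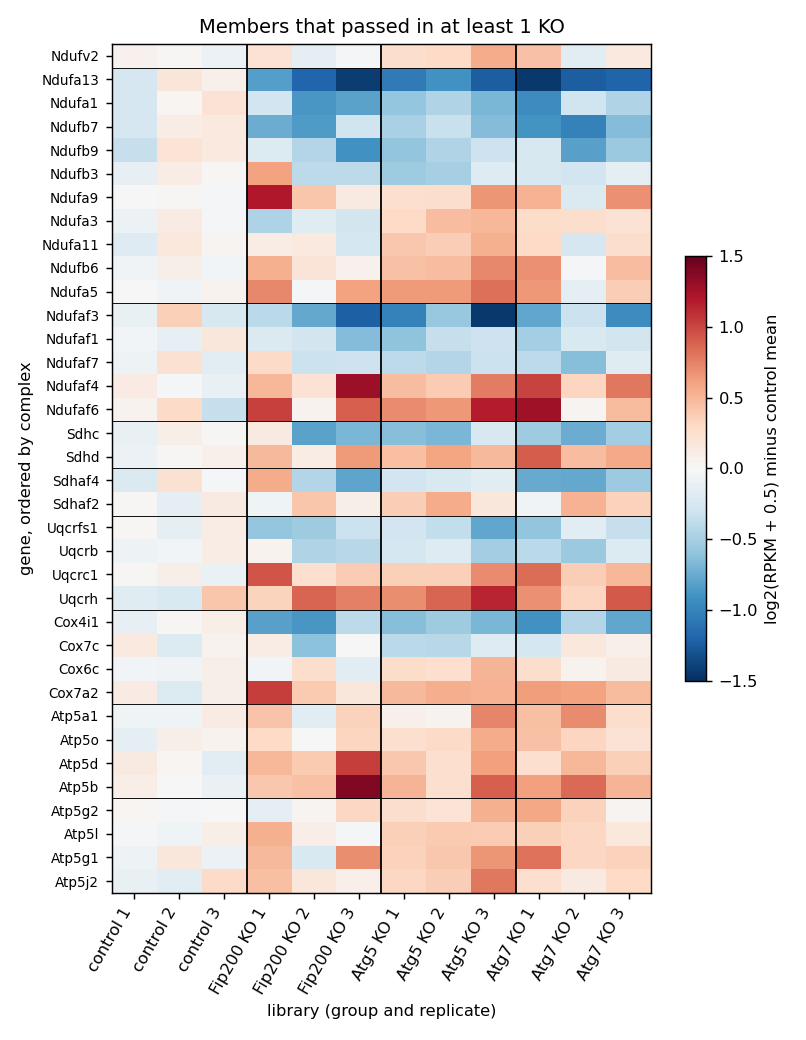
The 36 respiratory chain genes that passed in at least 1 KO, by library, as log2 of RPKM plus 0.5 minus the mean of the 3 control libraries, with colours held at 1.5 in either direction. Rows are ordered by complex and columns by group and replicate. Ndufa13 is low in all 9 KO libraries, and Fip200 KO libraries differ more among themselves than those of the other groups.

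The spread between libraries differed between the groups. The median SD of log2 RPKM plus 0.5 over 90 tested genes of the chain was 0.137 in control, 0.311 in the Fip200 KO, 0.160 in the Atg5 KO and 0.183 in Atg7 KO cells, beside 0.219, 0.406, 0.155 and 0.265 over all genes. All 3 KO libraries lay above all 3 controls for 9 of 89 genes of the chain in the Fip200 KO, 31 of 88 in the Atg5 KO and 15 of 88 in the Atg7 KO cells, where 11.7%, 28.4% and 19.2% of all genes did. They lay below for 12, 12 and 16 genes, beside 12.4%, 22% and 20.4% of all genes.

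The changes of the chain genes were also set beside those of the other genes of their chromosomes. Chromosomes were taken from RefSeq on GRCm38.p6 for all 92. On chromosome 8 lie Ndufa13, Ndufb7 and Cox4i1, which were below 0 in each KO. The other 661 genes there with enough reads had medians between −0.59 and −0.04 in the 9 KO libraries and between −0.03 and 0.01 in the control libraries, on the log2 scale relative to the control mean. Among all tested genes of chromosome 8, 6.18%, 44.2% and 32.7% fell in Fip200, Atg5 and Atg7 KO cells. On chromosome 4 all 5 chain genes (Ndufaf4, Ndufaf6, Ndufb6, Sdhb and Uqcrh) were above 0 in each KO and 4 rose in the Atg5 KO cells, where 44.2% of all tested genes of the chromosome rose. On chromosome 9, with Sdhd, Uqcrc1, Cox7a2, Atp5l, Cox5a and Ndufaf3, 5 of 6 were above 0 in each KO, Ndufaf3 being the exception, and the medians of the other genes were 0.22, 0.23 and 0.25 in Fip200, Atg5 and Atg7 KO cells. Chromosome 17 differed, as its 7 chain genes had medians of −0.06, 0.08 and −0.12 in that order. Its other genes had medians of 0.10, 0.31 and 0.12. Below 0 were 5 of the 7 in the Fip200 KO, 2 in the Atg5 KO and 5 in the Atg7 KO cells.

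Of the chain genes that passed, 30 of 34 in the Atg5 KO (88.2%) and 9 of 11 in the Atg7 KO cells (81.8%) had the sign of their chromosome's median, beside 67.5% and 65.9% of all genes that passed. Chromosome 10 varied by library. Its other 577 genes had a median of 0.73 in Fip200 KO replicate 3, between −0.07 and 0.11 in control and between 0.04 and 0.33 in the other 8 KO libraries. Of the 6 chain genes there, Atp5b, Atp5d, Ndufa12, Ndufs7 and Uqcr11 each had their highest level of all 12 libraries in Fip200 KO replicate 3. The sixth, Ndufa4l2, had its highest level in Fip200 KO replicate 2 (709 reads, against 2 in Fip200 KO replicate 3). The levels of the other 5 in replicate 3 were 1097, 103.6, 145.7, 62.5 and 129.4 RPKM. The part of the chromosomes in the values of single genes was not tested.

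**Figure D5:**
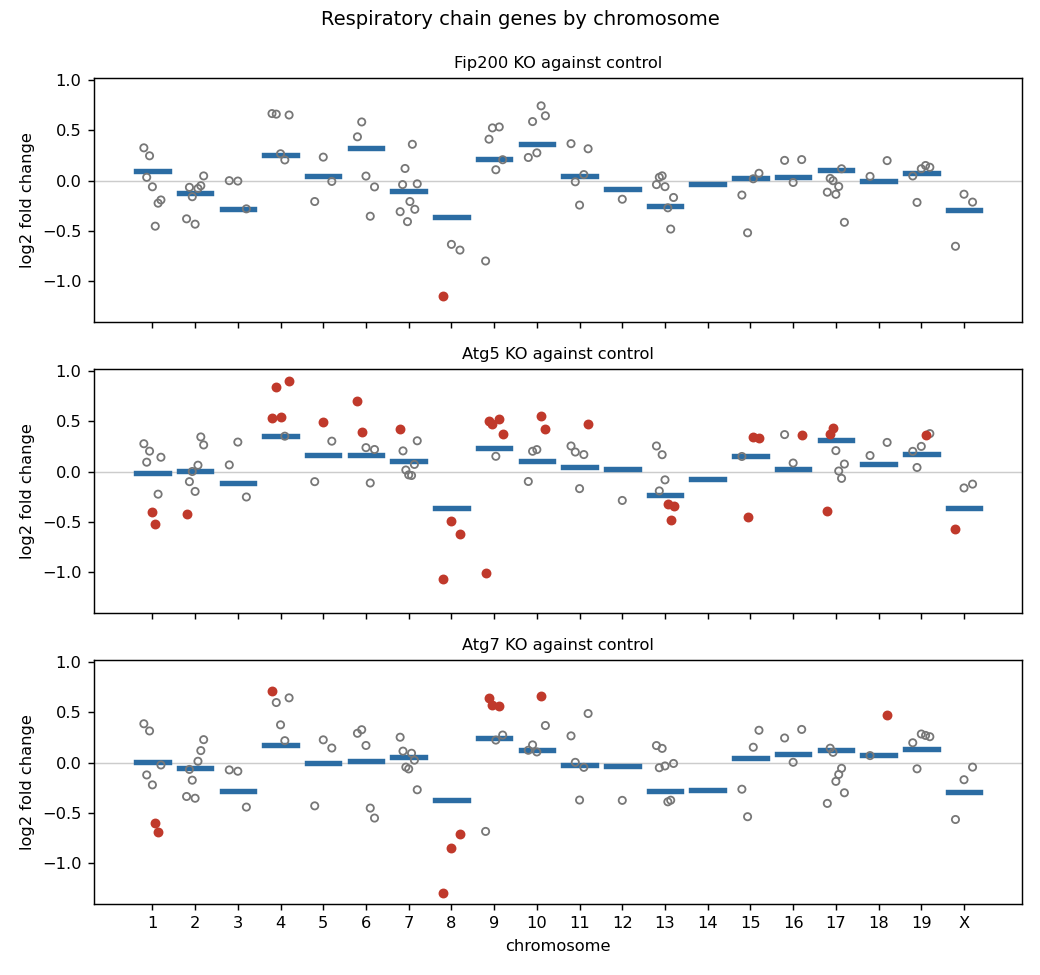
Log2 fold change of the tested respiratory chain genes by chromosome in each KO against control. Filled points passed at an adjusted p of at most 0.1 in limma, open points did not, and each thick bar is the median of the other tested genes of that chromosome. The bar of chromosome 8 is below 0 in each panel and its 3 points lie below the bar.

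The KO groups were then compared with each other in 1 fit of 12 libraries. In limma 0 of 90 chain genes and 0 of 12233 genes (0% called) passed in Atg5 against Fip200 KO, in Atg7 against Fip200 KO and in Atg7 against Atg5 KO cells. At an unadjusted p under 0.05 there were 6, 1 and 3 chain genes (6.67%, 1.11% and 3.33%) and 927, 916 and 562 genes in all (7.58%, 7.49% and 4.59%). A difference between groups that passed in 1 KO and not in another was therefore not shown for any chain gene. Without Fip200 KO replicate 3, 3 chain genes were higher in the Atg5 KO and 1 in Atg7 KO than in the Fip200 KO cells, where 3.17% and 3.44% of all genes were.

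Other genes of mitochondria were counted from 4 lists. Of 25 tested genes of the mitochondrial membranes and import, 12 rose and 2 fell in the Atg5 KO cells, 6 rose in the Atg7 KO and 0 passed in the Fip200 KO cells (5 with an unadjusted p under 0.05 in limma). Tomm5, a small subunit of the import pore, rose by 1.07 and 1.16 on the log2 scale in the Atg5 KO and Atg7 KO cells (adjusted p = 0.00577 and 0.0368). Of 18 tested regulators of mitochondrial biogenesis, 9 rose in the Atg5 KO cells, 3 rose with Atg7 KO and 0 passed in the Fip200 KO cells (0 with an unadjusted p under 0.05 in limma). Of 40 other chain and assembly genes, 7 rose and 5 fell in the Atg5 KO, 4 rose and 1 fell in the Atg7 KO and 1 fell in the Fip200 KO cells. Lrpprc, which stabilizes mitochondrial messenger RNA, rose in the Atg5 KO cells (log2 fold change 1.12, adjusted p = 0.0111), Higd1a rose in the Atg7 KO cells (1.03, adjusted p = 0.0368) and Higd2a, a complex IV assembly factor, fell in the Fip200 KO cells (−1.24, adjusted p = 0.0997). Short of the size threshold, Lrpprc also rose in the Atg7 KO cells (0.95, adjusted p = 0.0975, limma). Higd2a likewise fell in the Atg5 KO (−0.62, adjusted p = 0.0813) and Atg7 KO cells (−0.79, adjusted p = 0.0238). Of 17 genes of the tricarboxylic acid cycle and pyruvate dehydrogenase, 1 rose and 4 fell in the Atg5 KO, 2 rose and 1 fell in the Atg7 KO and 1 fell in the Fip200 KO cells, the last being Idh2 (−1.09, adjusted p = 0.0867). Idh2 also fell in the Atg5 KO (−0.87, adjusted p = 0.00420, limma) and Atg7 KO cells (−0.89, adjusted p = 0.0242). The percentages of all genes that rose or fell are those given above, 22.9% and 18.7% in the Atg5 KO cells among them.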

How the data were processed

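RNA-sequencing libraries (12, 3 per group) were prepared with a directional NEBNext Ultra II kit. Per the paper's methods the authors aligned trimmed reads with TopHat2 and counted them on known transcripts, and edgeR is named in their processing notes. Versions, genome build and annotation are not given in the sources used here. The authors deposited RPKM values per library and, as a signal, the mean of reads divided by size factors. Their fold changes and p-values were not used, and 0 columns of values per library were left out. RPKM values were whole multiples of 1 read (100% within 0.02 of a whole number), which gave totals of 17266926 to 23629730 reads per library.

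Genes were kept where 3 or more of the compared libraries reached 0.5 RPKM, and tested with limma 3.58.1 (R 4.3.3, eBayes with trend) on log2(RPKM + 0.5), with Benjamini-Hochberg adjustment over all genes tested. Fold changes on this scale understate those of low genes. Fits held the 6 libraries of a KO and control, or all 12 for differences between KO groups. The test was tried on simulated data whose changes lay well past the size threshold, and calls were scored with that threshold. The simulation does not cover smaller changes, on which most calls here rest. Sequences were read from RefSeq windows. Genes were named by a rule: those past both thresholds, the lowest and highest change and the most abundant gene of each class, and the tissue isoforms. Not every gene that the rule names is reported here. Others that passed were named after their values were seen. Alternatives were other pseudocounts, filters, scaling and fits, and leaving out each library. The chain genes, the lists and the tests were chosen with earlier results of these data known. Fits within 1 library-name prefix were added after seeing the data.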

Additional observations from a re-analysis of the deposited data

Results flagged for a closer look

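Ndufa3 and Cox7a2l are given here because all libraries of 1 KO lay above and all of another below the controls, and they were the only chain genes for which this was so. They are among the 6, 1 and 3 chain genes with an unadjusted p under 0.05 between KO groups in limma, where 7.58%, 7.49% and 4.59% of all genes had one. Ndufa3, a supernumerary subunit of complex I, had 57.0, 69.0 and 64.8 RPKM in the Fip200 KO libraries, 97.2, 108.6 and 111.5 in the Atg5 KO and 95.1, 94.7 and 91.5 in those of Atg7 KO, against 73.7, 85.6 and 77.0 in control. All Fip200 KO libraries lay below and all Atg5 KO and Atg7 KO libraries above the controls. In limma the log2 difference was 0.73 between Atg5 and Fip200 KO cells (SE 0.131, adjusted p = 0.356) and 0.56 between Atg7 and Fip200 KO cells (SE 0.131, adjusted p = 0.412).

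Cox7a2l, a factor in the joining of complexes III and IV into supercomplexes, had 51.1, 54.2 and 57.3 RPKM in the Fip200 KO libraries, 76.8, 77.7 and 74.2 in the Atg5 KO and 61.1, 58.3 and 56.7 in those of Atg7 KO, against 73.4, 71.7 and 71.9 in control. The log2 difference was 0.49 between Atg5 and Fip200 KO cells in limma (SE 0.116, adjusted p = 0.356) and −0.37 between Atg7 and Atg5 KO cells (SE 0.116, adjusted p = 0.931). None of these differences passed after adjustment over 12233 genes.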

How the results depend on the processing

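For Fip200 KO, 0 genes rose and 1 fell in the chain. The 1 lower gene became 0, with and without the size threshold, with no filter, a mean RPKM of at least 5, a replicate block or the prefix as a term. It was also 0 in the FY libraries alone, where the control is 1 library and 0 of 11335 genes passed in limma, so that fit says nothing about the chain. The single fit of 12 libraries gave 1 higher and 4 lower, beside 3.47% and 5.97% of all genes. Leaving out libraries gave 0 to 1 higher, 0 to 3 lower and 0 to 1 past the size threshold, with 1 higher and 3 lower without Fip200 KO replicate 3. Without that library 1.93% of all genes rose and 4.52% fell. For Atg5 KO, the 21 higher became 0 with the prefix as a term and 5 in the fit of 12 libraries, and the 13 lower became 8 with a replicate block, 1 and 4. Over all genes the replicate block gave 18.2% higher and 15.4% lower. Of the 2 past the size threshold 1 was left with a pseudocount of 1, the prefix term or the JG libraries alone. Leaving out libraries gave 9 to 21 higher, 5 to 11 lower and 0 to 3 past the size threshold. The higher count was 9 without Atg5 KO replicate 1, 11 without its replicate 2 and 10 without control replicate 3, with 5 lower in each. Of all genes 12.2%, 13.9% and 16.6% rose and 11.7%, 12.8% and 12.7% fell in that order. Without control replicate 2, 8 chain genes were lower, beside 15.1% of all genes. For Atg7 KO, 6 higher and 5 lower became 0 and 0 with the prefix term, with 0 past the size threshold, and a replicate block left 2 higher. Over all genes that block gave 6.69% higher and 9.4% lower. Leaving out libraries gave 0 to 14 chain genes higher, 1 to 9 lower and 1 to 1 past the size threshold: 14 and 9 without Atg7 KO replicate 2, 0 and 3 without its replicate 1, 3 higher without its replicate 3, 2 higher without control replicate 1, 0 and 2 without control replicate 2 and 0 and 1 without control replicate 3. Of all genes 16.5% and 16.8% rose and fell without Atg7 KO replicate 2, and 3.11% and 6.26% without its replicate 1. Without its replicate 3 these shares were 5.7% and 9.31%, and without control replicate 1 they were 8.37% and 10.3%. They were 4.39% and 6.18% without control replicate 2 and 2.42% and 3.71% without control replicate 3. Between KO groups leaving out libraries gave 0 to 3 chain genes higher in Atg5 and 0 to 1 in Atg7 against Fip200 KO, otherwise 0. Atp5a1 in Atg7 KO cells turned to −0.22 with the prefix term, which rests on Atg5 KO replicate 3. The cause was not tested. Same-numbered libraries deviated with correlations of −0.217 to 0.079, so the numbers do not pair the samples, and not every sample correlated best with its own number. RPKM scaling ties all levels to the library total, and 3 libraries per group limit the precision.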
